A study of Mus musculus with 11 samples.

Results

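TRiC, also called CCT, is the cytosolic chaperonin of eukaryotes. The 8 genes for its subunits, Tcp1, Cct2, Cct3, Cct4, Cct5, Cct6a, Cct7 and Cct8, were chosen by symbol from the 54838 genes of each count table, and all 8 were found, measured and tested. RNA was sequenced from mouse embryonic stem cells (ESCs) of the E14 line, a pluripotent line kept in LIF on gelatin, 36 h after transfection with a scrambled control siRNA (3 libraries), CMTR1 siRNA 1 (4 libraries) or CMTR1 siRNA 2 (4 libraries). CMTR1 is the methyltransferase that modifies the ribose of the first transcribed nucleotide of capped mRNA, and the comparisons ask how its repression altered the transcriptome. All groups were transfected, so every library shares that treatment. The labels number the libraries but do not say that they came from separate cultures, and the p-values then measure the spread between these libraries, which may be technical.

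TRiC/CCT is a barrel of stacked rings, and each ring holds every subunit in a fixed place. ATP hydrolysis closes a built-in lid over a bound protein and lets it fold inside. Actin and tubulins are its best known clients, together with WD40 proteins such as the mitotic activator Cdc20 and the G protein beta subunits. The subunits differ in their affinity for ATP: Tcp1, Cct2, Cct4 and Cct5 lie on the side of the ring that binds ATP tightly, and Cct3, Cct6a, Cct7 and Cct8 on the side that binds it weakly. A ring is built from equal numbers of the subunits, which makes the balance among their mRNAs of interest as well as their level. Proliferating cells, ESCs among them, hold much of the complex.

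The start sites of the genes are shown first, because CMTR1 acts on the first nucleotide of the transcript. Sequences from 30 bases before to 20 bases from the annotated start come from RefSeq (GRCm38.p6), which gave a window for 7 of the 8 genes and none for Cct4. The capital marks the annotated first transcribed base, and the rest is in lower case. These starts are annotations, and start sites were not measured in these libraries.
Tcp1, chr17:12916299-12916348, plus strand: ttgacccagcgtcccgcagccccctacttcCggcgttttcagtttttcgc
Cct2, chr10:117063833-117063882, minus strand: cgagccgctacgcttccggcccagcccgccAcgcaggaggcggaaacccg
Cct5, chr15:31601827-31601876, minus strand: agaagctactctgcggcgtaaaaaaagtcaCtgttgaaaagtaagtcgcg
Cct3, chr3:88297105-88297154, plus strand: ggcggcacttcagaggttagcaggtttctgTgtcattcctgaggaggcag
Cct6a, chr5:129787326-129787375, plus strand: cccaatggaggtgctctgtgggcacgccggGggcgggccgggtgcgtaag
Cct7, chr6:85451475-85451524, plus strand: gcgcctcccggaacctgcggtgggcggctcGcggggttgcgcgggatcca
Cct8, chr16:87495850-87495899, minus strand: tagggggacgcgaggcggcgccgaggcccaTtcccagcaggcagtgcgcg

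All 4 bases occurred at the start: C in Tcp1 and Cct5, T in Cct3 and Cct8, G in Cct6a and Cct7, and A in Cct2. Among all 32851 RefSeq windows the first base was A in 34.4%, C in 16.3%, G in 35.6% and T in 13.7%. None of the 7 windows began with a C followed by 4 pyrimidines, the pattern known from ribosomal protein mRNAs, which 2.51% of all windows had. In Cct8 the start lay in a run of 5 pyrimidines that began with T. The starts differ between annotations, and the RefSeq start lay 4 to 628 bases from the start of the gene in GENCODE M21, farthest in Tcp1.

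Motifs were searched on both strands of the 300-base windows that run from 250 bases before the start. GGGCGG, the core of the GC box, was in 7 of 7 windows and in 35.7% of all windows. The GC content of the 7 windows was 47.3 to 67.7%, with a median of 52.7% over all windows. CCGGAA, an ETS-type core, was in those of Tcp1, Cct2, Cct7 and Cct8 and in 14.9% of all. CCAAT, the letters of the CCAAT box, was in those of Tcp1, Cct3, Cct6a and Cct7 and in 37.4% of all. The pair of heat shock units GAANNTTC was in none (7.86% of all), and its inverse TTCNNGAA was in Cct5 and Cct6a (8.52% of all). TATAAA was in none (13.6% of all), nor was CACGTG (7.15% of all). No binding was measured here, and these matches describe the letters alone.

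The genes lie on 8 chromosomes (GRCm38, GENCODE M21). Of the side that binds ATP tightly, Tcp1 (ENSMUSG00000068039) is at chr17:12915701-12925067 on the plus strand and Cct2 (ENSMUSG00000034024) at chr10:117051001-117063814 on the minus strand. Cct4 (ENSMUSG00000007739) is at chr11:22990519-23003780 on the plus strand, and Cct5 (ENSMUSG00000022234) at chr15:31590800-31601804 on the minus strand. Of the other side, Cct3 (ENSMUSG00000001416) is at chr3:88297116-88321767 and Cct6a (ENSMUSG00000029447) at chr5:129786998-129846371, both on the plus strand. Cct7 (ENSMUSG00000030007) is at chr6:85451514-85468475 on the plus strand, and Cct8 (ENSMUSG00000025613) at chr16:87483326-87495873 on the minus strand. GENCODE M21 labels Cct6a a processed transcript and the other 7 genes protein coding.

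Exons of 4 subunits overlap those of a gene on the opposite strand. The kit keeps strand, but the strand setting of the counting was not given in the sources used here, so reads from such a stretch could have been counted for either gene or set aside as ambiguous. Tcp1 shares 141 bases with Mrpl18, a mitochondrial ribosomal protein gene, and 571 bases with Acat3, an acetyl-CoA acetyltransferase gene. Cct6a shares 452 bases with Psph, Cct7 214 bases with Pradc1, and Cct8 192 bases with Usp16. Of 75-base words of the longest transcript, 21.1% in Tcp1, 15.9% in Cct6a, 5.96% in Cct7 and 5.09% in Cct8 recurred in another gene. In the other 4 subunits none did. The values of Tcp1 and Cct6a are the least certain on this count. Small nucleolar RNA genes lie within Tcp1 (Gm26130 and Snora20) and Cct6a (Gm23245 and Snora15), and each had at most 359 reads over the 11 libraries. None of Mrpl18, Psph, Pradc1 and Usp16 was called with either siRNA (lowest edgeR FDR 0.396, Psph with siRNA 1), and Acat3 was below the filter on low counts.

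Depth was similar in all libraries, with 6738478 to 8382318 reads in genes, and each subunit had 2479 to 4722 reads in a library. Counting error is small at such numbers, and the spread between libraries sets the precision. Replicates of each group differed beyond sampling noise, and no library was a copy of another. The mRNA of the targeted gene, Cmtr1, was 21.3, 21.7 and 17.9 CPM (reads per 1000000 reads in genes) with control, 21.1, 21.3, 16.2 and 18.0 CPM with siRNA 1, and 15.6, 16.8, 16.4 and 19.5 CPM with siRNA 2. Against control it differed by −0.088 (SE 0.11) and −0.25 (SE 0.11) on the log2 scale with siRNA 1 and siRNA 2, and neither passed an FDR of 0.05 by edgeR's quasi-likelihood test (0.743 and 0.144). The groups of Cmtr1 values overlapped, so the depth of the knockdown was not established at the mRNA level. Markers of ESCs were present in all libraries, and their summed level was 1690 to 1847 CPM with control, 1469 to 1630 CPM with siRNA 1 and 1527 to 1598 CPM with siRNA 2.

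The subunit genes were among the most highly expressed genes of these cells. Together they took 0.361 to 0.408% of the reads in genes, or 24311 to 33686 reads in a library. Per kilobase of all annotated exons, every subunit of the control libraries stood between percentiles 96.7 and 99.3 of the level of the 13217 genes compared, which were the tested protein-coding genes and Cct6a. Levels between genes are compared here only per length, and the length used decides much of the order, because retained-intron transcripts are part of the exon length of some genes. Exon length was 6778 bases in Cct7, 6370 in Cct3 and 5030 in Tcp1, against 2441, 1977 and 2446 bases in their longest transcripts. The longest transcript was taken among protein-coding ones. Cct6a has none in GENCODE M21, and its longest processed transcript was used.

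Per kilobase of all exons, Cct2 stood highest in control libraries at 199.8 ± 7.25 CPM per kb (SD, n = 3). Cct5 followed at 196 ± 3.13 CPM per kb, and the order of these neighbours was not settled, since Cct2 was above Cct5 in only 5 of 11 libraries. Cct8 stood at 154 ± 4.29, Cct6a at 129.9 ± 2.70 and Tcp1 at 103 ± 4.61 CPM per kb. Cct4 stood at 96.7 ± 3.85 CPM per kb, and its control range overlapped that of Tcp1, which was above it in 10 of 11 libraries. The lowest were Cct3 at 82.1 ± 2.55 and Cct7 at 73.9 ± 1.36 CPM per kb.

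Per kilobase of the longest transcript the spread was smaller and the order differed. Cct5 was highest at 293 ± 4.67 CPM per kb, followed by Cct3 at 265 ± 8.21 and Cct2 at 261 ± 9.46. The control ranges of Cct3 and Cct2 overlapped, but within a library Cct3 was above Cct2 in 11 of 11. Tcp1 at 212 ± 9.47, Cct7 at 205 ± 3.76, Cct8 at 199 ± 5.53 and Cct6a at 192 ± 3.98 CPM per kb formed a group in which the control ranges of neighbours overlapped. Within a library, Cct8 was above Cct6a in 11 of 11, Cct7 above Cct8 in 9 of 11 and Tcp1 above Cct7 in 4 of 11. Cct4 was lowest at 163 ± 6.50 CPM per kb, and was the lowest of the 8 in 11 of 11 libraries. The coefficient of variation over the 8 subunits was 0.383 per kilobase of all exons and 0.198 per kilobase of the longest transcript in control libraries. It was 0.383 and 0.205 with siRNA 1, and 0.383 and 0.198 with siRNA 2, so the unevenness among subunits differed less between groups than between the definitions of length.

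**Figure D1:**
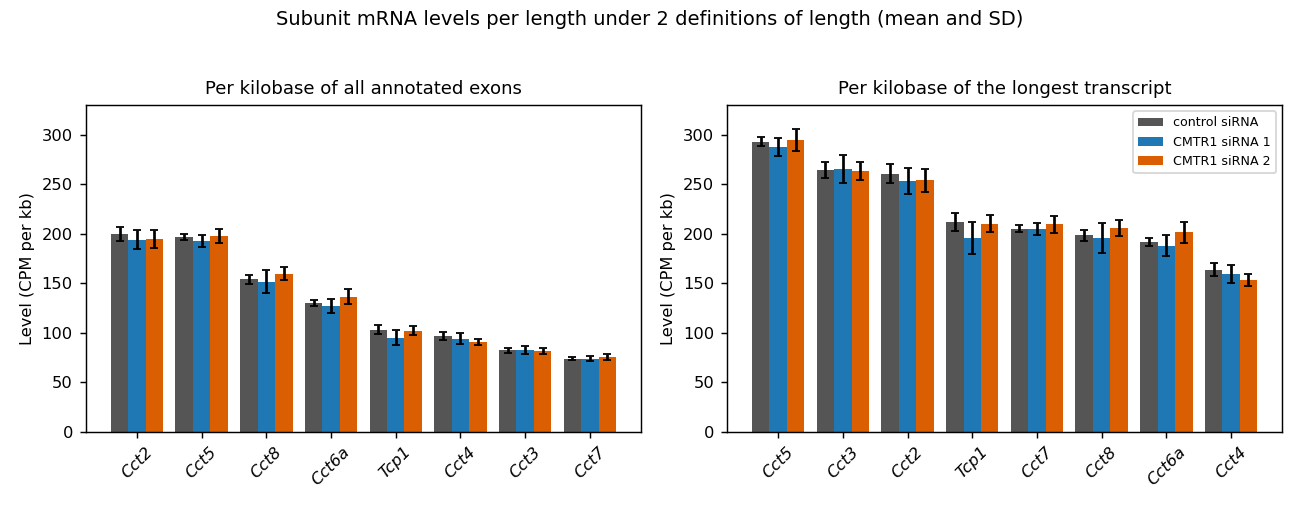
Level of each subunit mRNA in CPM per kilobase, with bars for the mean and lines for the SD of the control (n = 3), CMTR1 siRNA 1 (n = 4) and CMTR1 siRNA 2 (n = 4) libraries, per kilobase of all annotated exons on the left and of the longest transcript on the right. Cct3 and Cct7 stand lowest on the left, at 82.1 and 73.9 CPM per kb with control, while on the right Cct3 is at 265 CPM per kb and Cct4 is lowest at 163 CPM per kb.

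No subunit mRNA passed the test for a change with either CMTR1 siRNA. At an FDR of 0.05 (edgeR's quasi-likelihood test, adjusted over all 16073 genes tested), 0 of 8 subunits were called with siRNA 1, where 4.67% of all genes were called, and 0 of 8 with siRNA 2, where 9.72% were called. The lowest FDR of a subunit was 0.197 with siRNA 1 and 0.218 with siRNA 2. At an unadjusted p under 0.05, 1 of 8 passed with siRNA 1 and 0 of 8 with siRNA 2, against 16.8% and 23.2% of all genes. The count with siRNA 2 was 1 of 8, which was Cct4, with TMM factors (with either edgeR test), DESeq2, a replicate block, no filter on low counts or library sizes without the noncoding gene Gm26917. For no subunit were the libraries of an siRNA all above or all below those of control, a separation that 15.5% of all genes showed with siRNA 1 and 19.4% with siRNA 2. DESeq2 and edgeR's exact test also called 0 of 8 in each comparison. Both siRNAs were compared with the same 3 control libraries. In bulk RNA, fewer cells that express a gene and less RNA per cell cannot be told apart.

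The intervals limit how large a change relative to all reads in genes these libraries could have hidden. A change in RNA per cell shared by all genes would not show after this scaling. Over the 8 subunits, the 95% intervals ran from −13.9% to 6.74% of the control level with siRNA 1 and from −12.1% to 12.1% with siRNA 2. The median log2 fold change of the subunits was −0.029 with siRNA 1 and 0.00081 with siRNA 2, beside 0.024 and 0.029 over all genes tested. Estimates were below 0 for 7 and 4 of the 8 subunits, and for 43.2% and 42.9% of all genes. In size alone, the median change of a subunit was 0.029 with siRNA 1 and 0.034 with siRNA 2, against 0.109 and 0.125 over all genes. The latter include many genes with few reads, whose estimates scatter more from counting error. The subunits' levels are high, so this difference does not measure how stable they were. With TMM factors, which take the median over all genes to 0.0042 and 0.0040, the subunits' medians were −0.048 and −0.024.

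Tcp1, the founding subunit of the family, had the largest estimate with siRNA 1. It was 530.1, 533 and 492 CPM with control, 426, 471, 515 and 501 CPM with siRNA 1, and 528, 513, 484 and 530.3 CPM with siRNA 2. Replicate 1 of siRNA 1 was the lowest of the 11 libraries, and replicates 3 and 4 of that group lay within the control range. Against control, siRNA 1 gave a log2 fold change of −0.12 (SE 0.049, 95% interval −0.22 to −0.017) with an FDR of 0.197 by edgeR. Leaving out 1 library of either group at a time, it ranged from −0.15 (without replicate 3 of siRNA 1) to −0.065 (without replicate 1). It was below 0 in 7 of 7 such fits, with a lowest edgeR FDR of 0.067. Replicate 1 of siRNA 1 had the fewest reads in genes, 6738478. With siRNA 2 the log2 fold change of Tcp1 was −0.013 (SE 0.049, FDR 0.911).

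Cct4, which can form rings of its own in vitro, had the largest estimate with siRNA 2. Its level was 409, 421 and 389 CPM with control, 368, 388, 419 and 405 CPM with siRNA 1, and 389, 377, 363 and 395 CPM with siRNA 2. Of the 4 siRNA 2 libraries, 2 lay below every control library and 2 in the lower part of the control range. The estimate for siRNA 2 was −0.093 on the log2 scale (SE 0.046, 95% interval −0.19 to 0.00044), and the FDR was 0.218 by edgeR. With siRNA 1 it was −0.040 (SE 0.046, FDR 0.733).

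Cct2 and Cct5 belong to the same side of the ring. Cct2 was 494, 531 and 508 CPM with control, 468, 486, 525 and 506 CPM with siRNA 1, and 503, 506, 463 and 517 CPM with siRNA 2. Cct5, which also forms rings alone in vitro, was 549.6, 546 and 533 CPM with control, 512, 534, 554 and 529 CPM with siRNA 1, and 556, 563, 518 and 546 CPM with siRNA 2. In both genes the groups overlapped over most of their range. For Cct2 the log2 fold changes were −0.042 (siRNA 1) and −0.039 (siRNA 2), and for Cct5 −0.029 and 0.0079, each smaller than its SE of 0.042 to 0.046.

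Cct6a had the largest estimate above 0 with siRNA 2, and belongs to the subunits that bind ATP weakly. Its level was 468, 481 and 462 CPM with control, 433, 448, 492 and 470.5 CPM with siRNA 1, and 511, 494, 458 and 515 CPM with siRNA 2. In 3 of the 4 siRNA 2 libraries it was above every control library, and in replicate 3 it was below them. The estimate for siRNA 2 against control was 0.072 on the log2 scale (SE 0.046, 95% interval −0.021 to 0.16), with an FDR of 0.362 by edgeR. That for siRNA 1 was −0.028 (SE 0.046, FDR 0.825).

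Cct8 showed a similar arrangement, with 478, 487 and 461 CPM in control libraries, 429.8, 448, 511 and 483 CPM with siRNA 1, and 505, 501, 464 and 503 CPM with siRNA 2. Its log2 fold change was −0.023 with siRNA 1 (FDR 0.869) and 0.054 with siRNA 2 (SE 0.048, FDR 0.538). Cct7 was 499, 511 and 493 CPM with control, 482, 494, 517 and 507 CPM with siRNA 1, and 518, 537, 485 and 505 CPM with siRNA 2. Cct3 was 506, 539 and 524 CPM with control, 489, 517, 548 and 544 CPM with siRNA 1, and 532, 528, 493 and 529.6 CPM with siRNA 2. For Cct7 and Cct3 the estimates were within 0.030 of 0 on the log2 scale with either siRNA, below their SEs of 0.043 and 0.044.

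**Figure D2:**
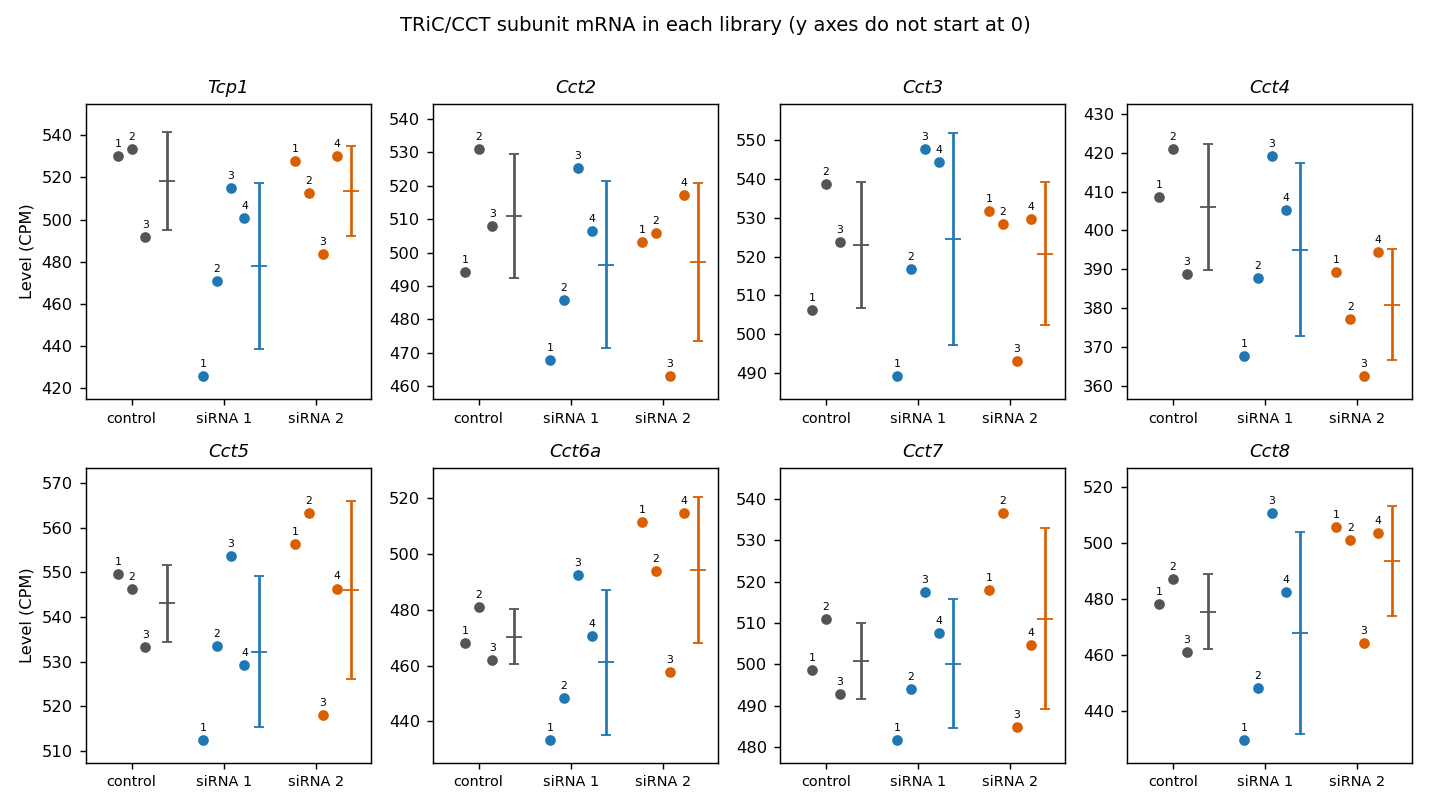
Level of each subunit mRNA in CPM in the 3 control, 4 CMTR1 siRNA 1 and 4 CMTR1 siRNA 2 libraries, with replicate numbers beside the points and lines for the mean and SD of each group; the vertical axes do not start at 0. The groups overlap in every panel, and replicate 1 of siRNA 1 and replicate 3 of siRNA 2 are the lowest libraries of their groups in all 8 panels.

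**Figure D3:**
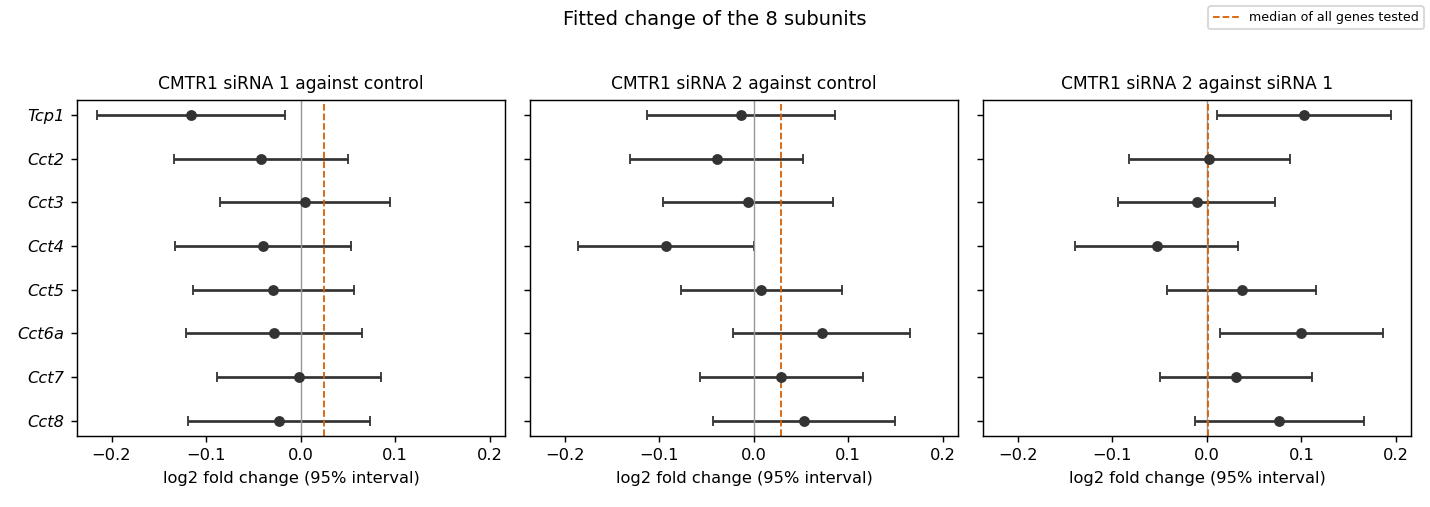
Log2 fold change of each subunit with its 95% interval for CMTR1 siRNA 1 against control, siRNA 2 against control and siRNA 2 against siRNA 1, with a dashed line at the median of all genes tested. Intervals lie between −0.22 and 0.20 throughout, and 0 of 8 subunits passed an FDR of 0.05 in any panel.

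The siRNAs were also compared with each other, a contrast that uses no control library. Here too 0 of 8 subunits were called at an FDR of 0.05 (edgeR), against 7.44% of all genes, and 2 of 8 passed an unadjusted p under 0.05, against 21.1%. No subunit had libraries that did not overlap, against 11.8% of all genes. The subunits at an unadjusted p under 0.05 were Tcp1, with a log2 difference of 0.10 for siRNA 2 minus siRNA 1 (SE 0.046, FDR 0.175), and Cct6a, with 0.100 (SE 0.043, FDR 0.157). Cct8 was at 0.077 (FDR 0.327), Cct4 at −0.053 (FDR 0.529), and the other 4 between −0.011 and 0.037. The intervals over the 8 subunits ran from −9.22% to 14.5%. Leaving out replicate 3 of siRNA 2 brought Cct6a to 0.13 and an FDR of 0.036, the only call of a subunit among the alternatives counted. Fits that left out a library of the group outside a comparison were not counted for it.

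The subunit mRNAs varied together from library to library. Their summed level was 3948 ± 94.7 CPM with control (SD, n = 3), 3855 ± 205 CPM with siRNA 1 (n = 4) and 3957 ± 154 CPM with siRNA 2 (n = 4). The means differed by less than the SD of either siRNA group. The sum ranged from 3608 CPM in replicate 1 of siRNA 1 to 4081 CPM in replicate 3 of the same group, a wider span than the difference between any group means. Replicate 1 of siRNA 1 and replicate 3 of siRNA 2 were the lowest of their groups for all 8 subunits. This was not particular to the complex. The same libraries were also lowest for Hspd1, Hspe1, Hspa8, Hspa4, Hsph1, Hsp90aa1, Hsp90ab1, Dnaja1, Stip1 and Ahsa1 of other chaperone systems. It was not so for Hspa1a, Hspa1b, Dnajb1 and Cdc37 of the same lists. In summed level of the subunits, replicate 3 of siRNA 2 stood at 3727 CPM, while the other 3 libraries of that group were at 4019 to 4043 CPM. This library also had the largest share of listed reads not assigned to a gene, 51.1%. Such reads matched no annotated feature, were ambiguous or aligned more than once. Replicates 1 and 2 of siRNA 2 had 47.2 and 46.5%, and the 10 libraries with such a listing had 46.5 to 51.1%. Replicate 3 of siRNA 1, with the highest sum, was at 48.0%, and replicate 1 of siRNA 1, with the lowest, at 49.97%. Control replicate 1, with a sum of 3934 CPM, was at 50.2%. The part of this share in the subunits' level was not tested.

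Over the 11 libraries, the log2 level of a subunit followed the mean of the other 7 with a Pearson r of 0.64 for Cct4 to 0.92 for Cct8. The libraries share their scaling to total counts and include all 3 groups, so this is a description of covariation and carries no p. Among the 7970 genes outside the complex with a mean log2 CPM of at least 4, those with the profile most like the mean of the 8 subunits were Hnrnpd (r = 0.978), an RNA-binding protein gene, the importin gene Ipo5 (r = 0.970), and Alyref (r = 0.963), an mRNA export adaptor gene. Zfp706 (r = 0.957), a zinc finger gene, and Ywhaq (r = 0.952), a 14-3-3 protein gene, followed. Across the libraries the mean log2 CPM of the subunits spanned 8.81 to 8.99, and these likenesses describe that narrow range.

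The balance among the subunits was examined as the share of each in their summed CPM, a measure added after the levels were seen. A share is free of what moves all 8 genes together, but the shares of a library add up to 100%, so they are not independent and no test was made. Within the complex, Cct4 took 10.1 to 10.4% in control libraries, 10.2 to 10.3% with siRNA 1 and 9.39 to 9.76% with siRNA 2. The siRNA 2 libraries thus lay below all 7 others. Cct6a took 11.9 to 12.0% with control, 11.8 to 12.1% with siRNA 1 and 12.3 to 12.7% with siRNA 2, where all 4 libraries lay above the other 7. Cct8 took 11.9 to 12.2% with control and 12.46 to 12.50% with siRNA 2, which did not overlap, but with siRNA 1 it ranged from 11.8 to 12.5%.

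With siRNA 1 against control, the share did not overlap for Tcp1 alone, which took 12.7 to 13.5% with control and 11.8 to 12.7% with siRNA 1, and the nearest libraries differed in the second decimal (12.73 against 12.69%). Between the siRNAs the shares of Tcp1, Cct2, Cct3, Cct4 and Cct6a did not overlap. Counted over all genes as a ratio to the same sum, 14.0% were separate with siRNA 1, 17.6% with siRNA 2 and 9.06% between the siRNAs. Of the 8 subunits, 1, 3 and 5 were separate. A subunit is part of that sum and varied with the other subunits, whereas most genes are not in it. The ratio is thus not alike for subunits and other genes, and no conclusion is drawn from these percentages. The shares of Cct5 and Cct7 overlapped in every comparison. Each of these shifts was under 1 percentage point of the sum.

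**Figure D4:**
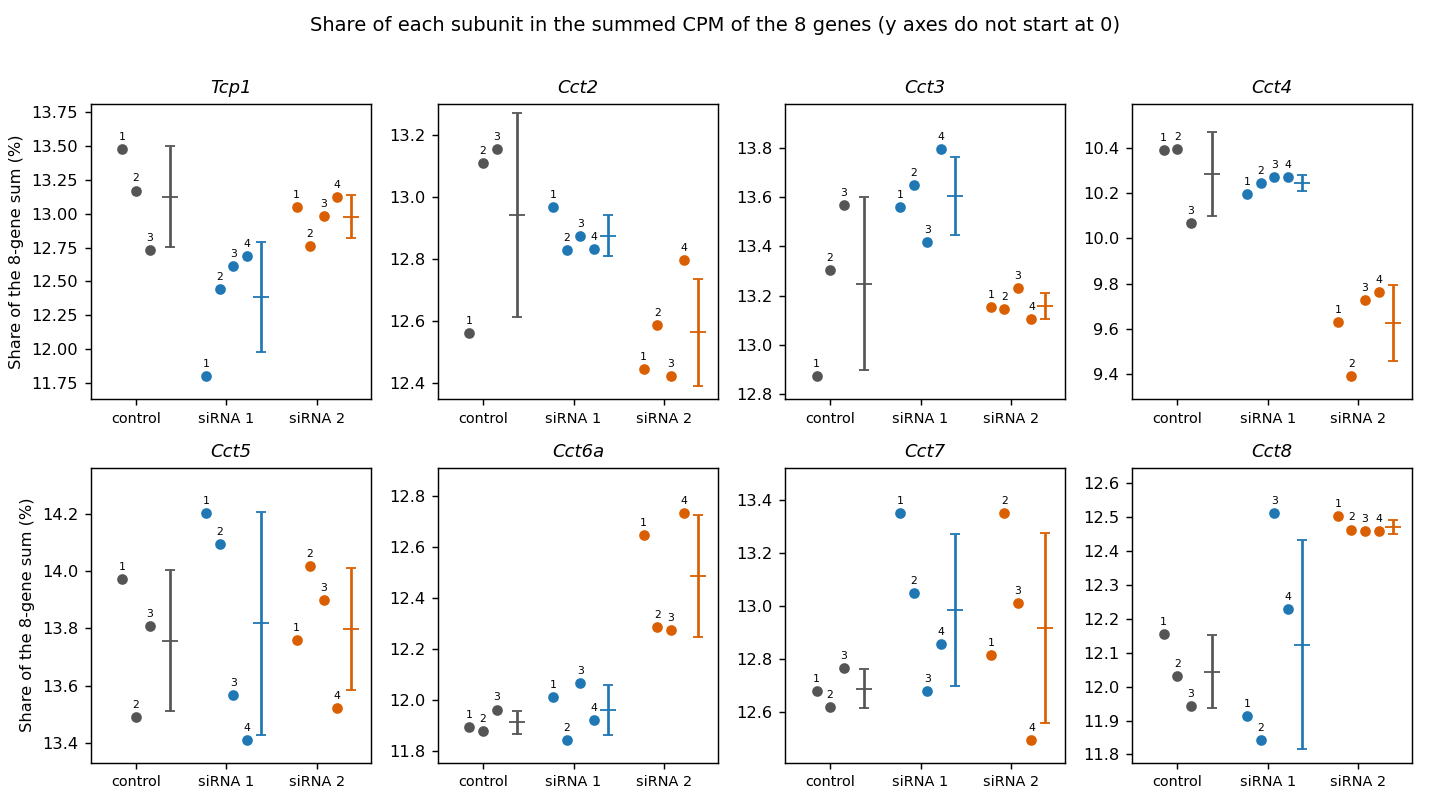
Share of each subunit in the summed CPM of the 8 genes, in percent, for each library, with replicate numbers beside the points and lines for the mean and SD of each group; the vertical axes do not start at 0. The 4 siRNA 2 libraries lie below all others for Cct4 (9.39 to 9.76%) and above all others for Cct6a (12.3 to 12.7%), and the groups overlap for Cct5 and Cct7.

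Partner genes were grouped by their role around the chaperonin, and their calls stand beside those of all genes tested, 4.67% with siRNA 1 and 9.72% with siRNA 2. The prefoldins bind nascent actin and tubulin and hand them to TRiC/CCT. Of the 6 subunit genes, 0 were called with either siRNA, with median log2 fold changes of 0.038 and 0.061. Pfdn6, the member highest per kilobase, was at 0.12 with siRNA 1 (FDR 0.39) and 0.16 with siRNA 2 (FDR 0.144). Vbp1 was higher with siRNA 2 than with siRNA 1 (log2 difference 0.27, SE 0.074, edgeR FDR 0.016), and was not called against control with either. The 4 phosducin-like and other cofactors that bind the complex gave 0 calls, with medians of 0.048 and 0.020, and their highest member, Pdcd5, was at −0.033 and 0.016 (FDR 0.892 and 0.939). The 6 tubulin-folding cofactors, which receive tubulin after release, gave 0 calls with medians of 0.065 and −0.023, and Tbca was at 0.065 and 0.039 (FDR 0.718 and 0.803).

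Among 12 actin and tubulin genes, whose products fold in the chaperonin, 2 rose with siRNA 1, 1 rose with siRNA 2 and 0 fell, where 4.67% and 9.72% of all genes were called. Tubb6, a beta tubulin, was 86.2, 85.5 and 82.0 CPM with control, 126, 124, 111 and 113 CPM with siRNA 1, and 100.2, 112, 106 and 100.1 CPM with siRNA 2. All 8 siRNA libraries lay above all 3 control libraries. Its log2 fold change was 0.48 with siRNA 1 (SE 0.058, edgeR FDR 3.6e-07) and 0.31 with siRNA 2 (SE 0.059, FDR 0.00034), and siRNA 2 stood 0.18 below siRNA 1 (FDR 0.029). Tuba1a, an alpha tubulin, was 131, 129 and 120.2 CPM with control and 146, 153, 148 and 148 CPM with siRNA 1, and rose by 0.23 on the log2 scale (SE 0.051, FDR 0.0033). With siRNA 2 it was 139, 143, 133 and 134 CPM, at 0.12 (FDR 0.146). Tubb2b differed only between the siRNAs, at −0.17 for siRNA 2 minus siRNA 1 (FDR 0.025). The medians of the 12 genes were −0.026 and 0.0020.

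Of 10 WD40 and other client genes, 0 were called in any comparison, with medians of 0.070 and 0.0016, and Cdc20 was at −0.010 and −0.018 (FDR 0.947 and 0.870). Of 4 genes related in sequence to the subunits, the chaperonin-like genes of Bardet-Biedl syndrome Mkks, Bbs10 and Bbs12 and the testis-type Cct6b, 1 rose with each siRNA. This was Bbs10, at 3.05, 3.08 and 4.44 CPM with control, 5.49, 5.98, 6.34 and 6.15 CPM with siRNA 1, and 5.11, 6.44, 5.66 and 5.68 CPM with siRNA 2. Its log2 fold changes were 0.77 (SE 0.19, FDR 0.0085) and 0.71 (SE 0.19, FDR 0.011), and the siRNA libraries lay above those of control. Per kilobase of exons Bbs10 stood at 1.71 CPM over all libraries, far below the subunits, and its SE was larger than theirs.

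Other chaperone systems were compared in the same way. The mitochondrial chaperonin genes Hspd1 and Hspe1 gave 0 calls, and Hspd1 was at −0.12 with siRNA 1 (FDR 0.114) and −0.0091 with siRNA 2 (FDR 0.938). Its partner Hspe1 was at −0.15 (FDR 0.092) and −0.14 (FDR 0.065), and its siRNA 2 libraries lay below all control libraries. Of 12 genes of the cytosolic HSP70 and HSP90 system, which pass some clients to TRiC/CCT, 0 were called against control with medians of −0.065 and 0.0094. Hsp90ab1, the constitutive HSP90, was at −0.11 (FDR 0.122) and −0.094 (FDR 0.141). The kinase cochaperone gene Cdc37 differed between the siRNAs, at −0.19 for siRNA 2 minus siRNA 1 (FDR 0.0067).

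The R2TP and prefoldin-like genes, whose products assemble RNA polymerases and other large complexes, gave 0 of 7 calls with siRNA 1 and 2 of 7 with siRNA 2, where 4.67% and 9.72% of all genes were called. Uri1, an unconventional prefoldin, was 140.3, 143 and 135 CPM with control and 104, 98.1, 119 and 122 CPM with siRNA 2, and fell by 0.33 on the log2 scale (SE 0.061, edgeR FDR 0.00020). Pdrg1, a prefoldin-like gene, rose by 0.25 with siRNA 2 (SE 0.080, FDR 0.037). Between the siRNAs, Uri1 was at −0.26 (FDR 0.0020) and Ruvbl2, an AAA+ ATPase gene, at −0.15 (FDR 0.032). The medians of the 7 genes were −0.069 and −0.11.

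**Figure D5:**
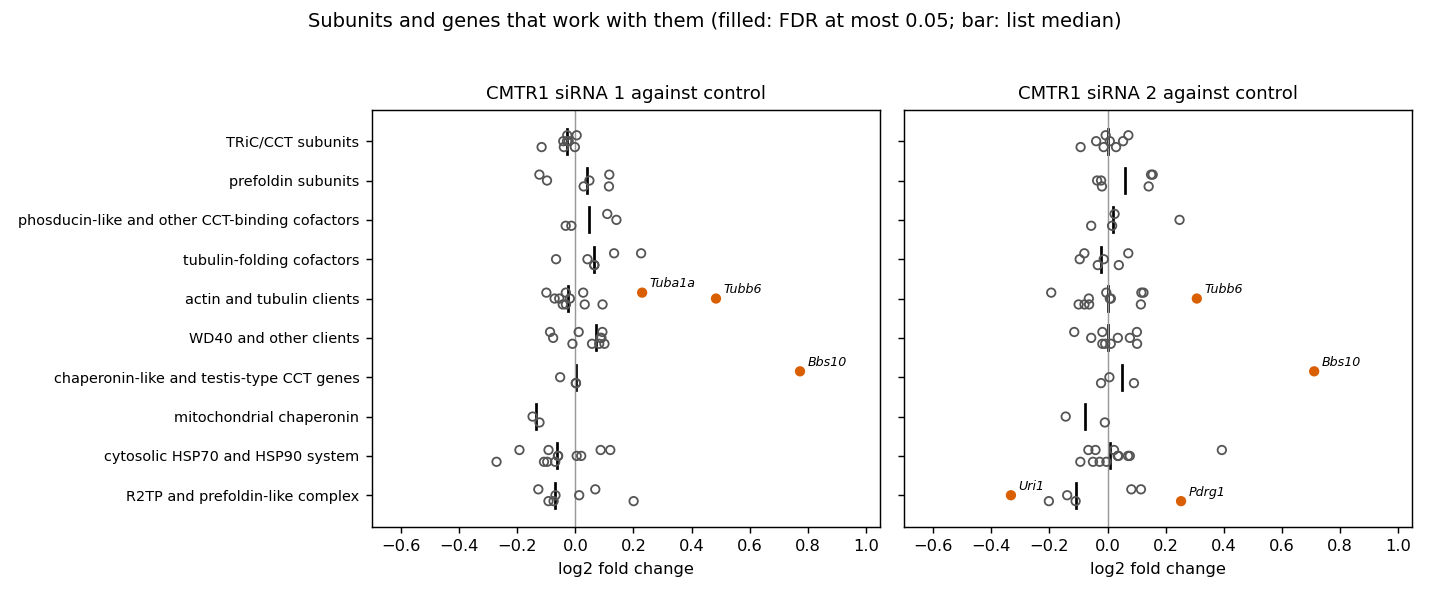
Log2 fold change of each gene (points) and the median of each list (bars) for CMTR1 siRNA 1 and siRNA 2 against control, for the TRiC/CCT subunits and 9 lists of partner, client and other chaperone genes, with filled points for an FDR of at most 0.05. No subunit is filled, and the filled genes are Tuba1a, Tubb6 and Bbs10 with siRNA 1 and Tubb6, Bbs10, Uri1 and Pdrg1 with siRNA 2.

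Markers of cell state moved in the same libraries, and their part in the subunits' values was not tested. Their calls against control stand beside those of all genes tested, 4.67% with siRNA 1 and 9.72% with siRNA 2. Of 8 ESC markers, 6 fell with siRNA 1 (Pou5f1, Nanog, Zfp42, Esrrb, Tfcp2l1 and Dppa5a) and 4 with siRNA 2 (Nanog, Zfp42, Esrrb and Tfcp2l1). Nanog, a pluripotency transcription factor, fell by 0.57 and 0.54 on the log2 scale (FDR 5.4e-05 and 5.0e-05). Of 6 fibroblast markers, 5 were tested. With siRNA 2, Col1a1 (0.75) and Dcn (1.13) rose and Col3a1 fell by 1.42, with 0 calls with siRNA 1. Col3a1 was at 1.21 to 2.16 CPM with control and 0.247 to 0.852 CPM with siRNA 2. Dcn was at 1.60 to 2.03 and 3.10 to 4.53 CPM, so both changes rest on few reads. The summed level of the 6 markers was 23.3 to 27.8 CPM with control, 24.7 to 28.5 CPM with siRNA 1 and 34.1 to 38.9 CPM with siRNA 2. Primitive endoderm markers, with 6 tested, and mesoderm and neural markers, with 5 of 6 tested, gave 0 calls against control. Dab2 was at −0.020 and −0.014 (FDR 0.944 and 0.949), and Tubb3 at −0.019 and 0.011 (FDR 0.936 and 0.952). Pax6, a neural transcription factor, was at 0.38 with siRNA 1 (FDR 0.089) and −0.30 with siRNA 2 (FDR 0.188), each group separate from control. It was lower with siRNA 2 than with siRNA 1 (log2 difference −0.68, edgeR FDR 0.00031). Sox1, another neural gene, was at 0.25 with siRNA 1 (FDR 0.129) and 0.028 with siRNA 2 (FDR 0.905). T, a mesoderm gene, was at −0.069 with siRNA 1 (FDR 0.939) and −0.63 with siRNA 2 (FDR 0.189). Its siRNA 2 libraries, at 0.954 to 1.62 CPM, lay below those of control, at 1.88 to 2.22 CPM, and these values rest on few reads.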

How the data were processed

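RNA was sequenced from rRNA-depleted, strand-keeping libraries of 3 control, 4 CMTR1 siRNA 1 and 4 CMTR1 siRNA 2 samples. The study's methods give 3 biological replicates, and all 11 libraries were used. The authors deposited counts, whole numbers of reads per Ensembl gene, made by trimming (Cutadapt), alignment to GRCm38 (STAR), removal of PCR duplicates (Picard) and counting. Removing duplicates can compress the level of abundant mRNAs such as these. The methods name featureCounts, but 10 files end in lines for reads not assigned to a gene, in the layout of HTSeq-count. The counter, and with it the handling of overlapping and multiply aligned reads, is thus uncertain. The lines for unassigned reads were set aside.

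The test was edgeR's quasi-likelihood fit (edgeR 4.0.16, R 4.3.3) with 1 coefficient per group, library scaling by total counts, and a filter of more than 1 CPM in 4 or more libraries, which left 16073 genes. FDRs follow Benjamini and Hochberg over these genes, with calls at 0.05. Intervals are 95% intervals from the SE and degrees of freedom of the test. The common biological coefficient of variation was 0.0418. GENCODE M21 held 54723 of the 54838 gene identifiers. The fit was tested on simulated counts.

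The subunits and the other lists were chosen with earlier results of these data known. All subunits are named with every library's value. Of each other list, genes called against control are named (at most 6, by lowest FDR), or, where none was called, the gene highest in CPM per kilobase. Vbp1, Tubb2b, Cdc37, Ruvbl2 and Pax6, called only between the siRNAs, were named after values were seen. So were Hspe1, Sox1, T, the gene overlaps and the chaperone genes named for their lowest libraries. The genes most like the subunits are the 5 of highest Pearson r with log2 CPM averaging 4 or more, provisional symbols left out. Alternatives were TMM factors, exactTest, DESeq2 1.42.0, other filters, a fit of 2 groups, a replicate block and each library left out. TMM factors with exactTest, library sizes without the noncoding gene Gm26917 (4.86 to 6.34% of counts) and the shares of summed CPM were added after the data were seen. Tables and figures were made with Python 3.11.15, numpy 2.4.6, pandas 2.3.3 and matplotlib 3.10.9.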

Additional observations from a re-analysis of the deposited data

Results flagged for a closer look

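Replicate 3 of CMTR1 siRNA 2 stood apart from the other 3 libraries of its group in the level of 2 subunits and in the sum of all 8. For Cct3 it was at 493 CPM, and its gap to the nearest library was 0.911 of the group's range. For Cct8 it was at 464 CPM, with a gap of 0.888 of the range. For the summed CPM of the 8 subunits it was at 3727 CPM, with a gap of 0.924 of the range. Dixon's 95% critical value for 4 samples is 0.829. Of 20 groups of 4 values looked at, 3 passed it, where chance gives about 1 in 20, and the 3 values share the same library and are not independent. That library was also the lowest of its group for genes of other chaperone systems, such as Hspd1 and Hsp90aa1, though not for Cdc37.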

How the results depend on the processing

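Of 392 values of the subunits under 20 alternatives, 356 kept their direction and side of the threshold, 35 changed sign with no call before or after, and 1 became a call. With TMM factors, DESeq2, and TMM factors with exactTest, Cct3 with siRNA 1 was at −0.016, −0.019 and −0.016, Cct5 with siRNA 2 at −0.017, −0.021 and −0.017, and Cct2 between the siRNAs at −0.0020, −0.0024 and −0.0020. Without Gm26917 in library sizes the last was at −0.0040. The reported values of these were 0.0043, 0.0079 and 0.0026, and the cause was not tested.

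Leaving out 1 library of the compared groups at a time, log2 fold changes with siRNA 1 ranged from −0.018 to 0.036 for Cct3, −0.061 to 0.00012 for Cct6a, −0.019 to 0.016 for Cct7 and −0.068 to 0.015 for Cct8. With siRNA 2 they ranged from −0.050 to 0.014 for Tcp1, −0.029 to 0.019 for Cct3 and −0.0076 to 0.032 for Cct5, and between the siRNAs from −0.024 to 0.035 for Cct2 and −0.042 to 0.014 for Cct3. The count of subunits called between the siRNAs ranged from 0 to 1, and the call was Cct6a without replicate 3 of siRNA 2. In the other comparisons it was 0 throughout, with a lowest FDR of 0.067 for siRNA 1 and 0.116 for siRNA 2 over all alternatives. The coefficient of variation per kilobase moved to 0.198, 0.205 and 0.198 (control, siRNA 1, siRNA 2) with the longest transcript as length.

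Counts of all genes called depend more on the setting: with siRNA 1, siRNA 2 and between them, 751, 1562 and 1196 in the reported setting, 521, 958 and 740 with DESeq2, and 355 to 852, 807 to 1658 and 724 to 1365 with 1 library left out. Those moved by over 1.5 times with 1 library left out were 355, 450 and 425 without control 2, control 3 and siRNA 1 replicate 2, 916, 807 and 1007 without control 2, control 3 and siRNA 2 replicate 1, and 737, 724 and 751 without siRNA 1 replicates 1 and 2 and siRNA 2 replicate 1. The DESeq2 counts with siRNA 2 and between the siRNAs also moved by over 1.5 times. Of those called, 435 of 751 and 991 of 1562 were higher than control, against 346 of 746 and 728 of 1462 with TMM factors.

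With the replicate number as a block, 0 of 8 subunits were called in any comparison, Cct3 with siRNA 1 was at −0.0092 and the medians were −0.040, −0.0051 and 0.034. Same-numbered libraries did not deviate together over all genes tested (r −0.057 to 0.062 over 10 pairs). Genes with few reads were included, where counting noise can pull r towards 0, so this check cannot exclude that the numbers pair the samples.

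The design limits these results to changes relative to all reads in genes, of the size given by the intervals. The counts do not separate transcripts of a gene, and no value here bears on the protein of the complex.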
